A study of Mus musculus with 2 samples.

Results

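The 9 lysosomal cathepsin genes described here were followed through the cells of the mouse temporomandibular joint (TMJ), the hinge between the lower jaw and the skull. The genes were *Ctsa*, *Ctsb*, *Ctsc*, *Ctsd*, *Ctse*, *Ctsh*, *Ctsl*, *Ctss* and *Ctsz*, 9 of the 32285 genes counted, and they were taken by name, not by how they behaved. The study prepared 2 single-cell RNA-Seq libraries from C57BL/6 wild-type female mice, which the labels give as 8 to 10 weeks old. One library came from joints injected with PBS, the vehicle control, and the other from joints injected with complete Freund's adjuvant (CFA), an oil emulsion with killed mycobacteria that provokes lasting inflammation. By the study's methods the joints were collected 3 weeks after injection together with surrounding bone, muscle and ligament, the tissue of each group was digested in a single tube, and cells carrying the leukocyte antigen CD45 were partly removed with magnetic beads before loading. The libraries therefore hold a joint region that includes marrow and muscle, the animals behind each library cannot be told apart, and the share of immune cells reflects the depletion as well as the joint.

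Barcodes with at least 500 genes, at most 10% mitochondrial UMIs and at most 1% hemoglobin UMIs were used, 2667 of 7671 from PBS joints and 4014 of 5709 from CFA joints. A UMI (unique molecular identifier) marks 1 captured RNA molecule, so levels are given as counts per 1000000 UMIs (CPM) summed over the cells of a class and are not divided by gene length. The median cell held 7022 UMIs in PBS and 6509.5 in CFA. Cells were clustered without any cathepsin gene, and 33 of 38 clusters were named into 19 classes from canonical markers. Because these names were rebuilt from the counts, each class is called "-like". The macrophage-like cluster showed 6 of its 7 markers and the osteoclast-like macrophage cluster 6 of its 8. With 1 library for each treatment there is no replicate and no test between PBS and CFA. The 95% intervals given are exact (Poisson for levels, conditional binomial for ratios, Clopper-Pearson for shares of cells) and cover counting error only. In summed counts, fewer cells of a kind and less RNA in each cell cannot be told apart. The libraries shared 10 barcodes, of which 2 were among the cells used.

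Cathepsins are proteases of the lysosome, the acidic compartment in which cells break down proteins taken up from outside or delivered from within. They are made as inactive precursors, sorted to the lysosome by mannose 6-phosphate tags, and activated by the low pH or by other proteases, and some are also secreted and cut extracellular matrix. Macrophages and osteoclasts are rich in them, and in joints they are studied for matrix breakdown, antigen processing and bone resorption.

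The members fall into enzyme classes. Positions are from the GENCODE annotation of GRCm38, the assembly the submitters' processing notes list as mm10. *Ctss* (chr3:95526786-95556403, plus strand) encodes cathepsin S, a cysteine protease that stays active near neutral pH and trims the invariant chain from MHC class II molecules. *Ctsb* (chr14:63122462-63145923, plus) and *Ctsl* (chr13:64359337-64370890, minus) encode the broadly expressed cysteine proteases cathepsin B and cathepsin L. *Ctsc* (chr7:88278085-88310888, plus) encodes cathepsin C, the dipeptidyl peptidase that activates the serine proteases of neutrophil granules. *Ctsh* (chr9:90054152-90076089, plus) encodes an aminopeptidase and *Ctsz* (chr2:174427493-174439039, minus) a carboxypeptidase of the same cysteine protease family. *Ctsd* (chr7:142375911-142388038, minus) encodes cathepsin D, the main aspartic protease of lysosomes, and *Ctse* (chr1:131638306-131675505, plus) encodes cathepsin E, an aspartic protease known from red cell precursors, stomach and some immune cells. *Ctsa* (chr2:164832873-164841032, plus) encodes a serine carboxypeptidase that also protects neuraminidase and beta-galactosidase. *Ctsd*, *Ctsl* and *Ctss* each overlap another annotated gene on their own strand (*Gm49369*, *Gm49230* and *Hmgb1-ps5*), so reads in the shared stretch may not have been counted to them.

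Lysosomal genes often carry in their promoters the sequence CACGTG, the core bound by the MiT/TFE factors such as TFEB. RefSeq promoter windows on GRCm38.p6, from 250 bases before to 50 bases after each start, were held for 6 of the 9 members. Both strands were searched for CACGTG and for the longer TCACGTGA, which contains it and, like it, reads the same on either strand. CACGTG was found for 3 of these 6 members (*Ctsa*, *Ctsd* and *Ctsl*), beside 8.09% of 27025 genes, and TCACGTGA for *Ctsa* and *Ctsd*, beside 1.12% of genes. The 30 bases around these matches are shown because *Ctsd* was, of the abundant members, the one that differed most between the macrophage classes described next. The second *Ctsa* window held 2 matches of TCACGTGA, of which the one just after the start lies outside the bases shown, and the first *Ctsa* window held none. The capitals mark TCACGTGA, which begins 99 bases upstream of the *Ctsd* start (chr7:142387908-142387937, minus strand) and 13 bases upstream of the second *Ctsa* start (chr2:164833743-164833772, plus strand).
Ctsd: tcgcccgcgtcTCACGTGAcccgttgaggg
Ctsa: gaacaatgagcaaactgTCACGTGAtgcag
A match describes the letters only, and no binding was measured here.

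Over all cells the 9 genes together reached 1318 CPM in PBS (35855 UMIs) and 5943 CPM in CFA (264073 UMIs). Most of the CFA molecules lay in 2 classes, macrophage-like cells (313 cells) and osteoclast-like macrophages (269 cells), which made up 14.5% of its cells, 30.5% of all its UMIs and 81.2% of its cathepsin UMIs. In the PBS library the same classes held 17 cells and 1 cell, 0.675% of the cells and 3.49% of the cathepsin UMIs. Outside both classes the sum was 1281 CPM in PBS and 1608 CPM in CFA, so the libraries differed far less there.

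The share held by these classes in the CFA library differed among the members, as the plot of cell classes behind each gene shows. They held 92.8% of *Ctss* UMIs, 87.1% of *Ctsd*, 77.6% of *Ctsz*, 74.2% of *Ctsc*, 72.8% of *Ctsh*, 71.1% of *Ctsb* and 67.4% of *Ctsa*. *Ctsl*, which connective tissue cells also expressed, had 54.1% of its UMIs there, and *Ctse* had 9.30%. Over all cells *Ctss* went from 23.71 CPM in PBS to 1970 CPM in CFA, and from 15.85 to 203.6 CPM once both classes were set aside. *Ctsd* likewise went from 234.2 to 1445 CPM over all cells and only from 231.0 to 268.8 CPM outside them. *Ctsl* had a small difference over all cells, 432.1 CPM in PBS and 532.5 CPM in CFA, and was lower in CFA outside the macrophage classes (432.0 and 351.6 CPM). *Ctse* was the only member with a lower level in the CFA library over all cells, 33.27 CPM in PBS and 12.58 CPM in CFA.

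**Figure D1:**
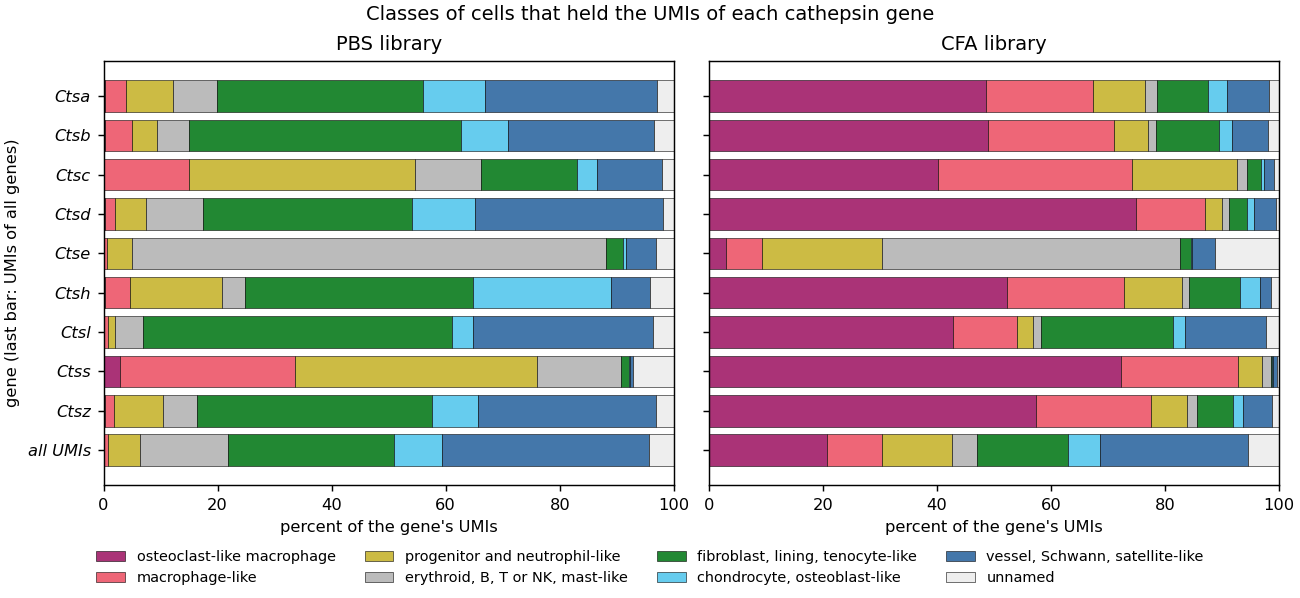
Percent of each cathepsin gene's UMIs held by groups of cell classes, PBS on the left and CFA on the right, with the UMIs of all genes in the last bar. In the CFA library the macrophage-like and osteoclast-like cells held from 9.30% of Ctse to 92.8% of Ctss UMIs, against 30.5% of the UMIs of all genes.

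Within the CFA library osteoclast-like macrophages, a cluster led by *Mmp12*, *Dcstamp* and *Atp6v0d2*, had the highest summed level of all classes, 17828 CPM (17742 to 17914), followed by macrophage-like cells at 11518 CPM (11417 to 11621). Erythroid-like cells followed at 3848 CPM, but 58.6% of them had over 1000 CPM of the macrophage gene *Lyz2*, and their PBS sum was 788.4 CPM. Progenitor-like cells were at 3217 CPM, mature neutrophil-like cells at 2960 CPM and fibroblast-like cells at 2097 CPM. No other class thus came within 2-fold of the macrophage-like level. The difference was seen in single cells as well. After each cell was thinned to 1000 UMIs, a mean of 17.0 were cathepsin UMIs in osteoclast-like cells, 10.5 in macrophage-like cells and 1.84 in fibroblast-like cells.

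*Ctss* was the most abundant member in both macrophage classes, at 6839 CPM (6786 to 6893) in osteoclast-like and 4183 CPM (4122 to 4245) in macrophage-like cells, a ratio of 1.63. It made up 38.4% and 36.3% of their cathepsin UMIs. *Ctsd* separated the classes most among the abundant members, with 5201 CPM in osteoclast-like and 1814 CPM in macrophage-like cells (ratio 2.87, 2.80 to 2.94). In single cells the interquartile range of *Ctsd* ran from 2462 to 6492 CPM in osteoclast-like cells and from 350.6 to 2052 CPM in macrophage-like cells, so these ranges did not overlap. Among the members higher in osteoclast-like cells *Ctsl* followed with 1094 and 624.7 CPM (1.75, 1.68 to 1.83).

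The other members differed less or in the opposite direction. *Ctsb* was alike in both, 1975 CPM (1947 to 2004) in osteoclast-like and 1928 CPM (1887 to 1970) in macrophage-like cells, with intervals that overlapped. *Ctsz* (1141 and 863.6 CPM), *Ctsa* (254.8 and 211.6 CPM) and *Ctsh* (540.8 and 457.6 CPM) were 1.18 to 1.32 times as high in osteoclast-like cells. *Ctsc* was lower there, 780.0 against 1428 CPM (0.546, 0.528 to 0.565), and *Ctse* was near zero in both, 1.837 and 8.158 CPM (0.225). By a limit of 1.5-fold, 3 of the 9 members were higher in osteoclast-like cells and 2 were lower, where 8.24% of the 10711 genes that could be compared were higher and 31.4% lower. The median log2 ratio was 0.27 over the members and −0.31 over all genes.

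**Figure D2:**
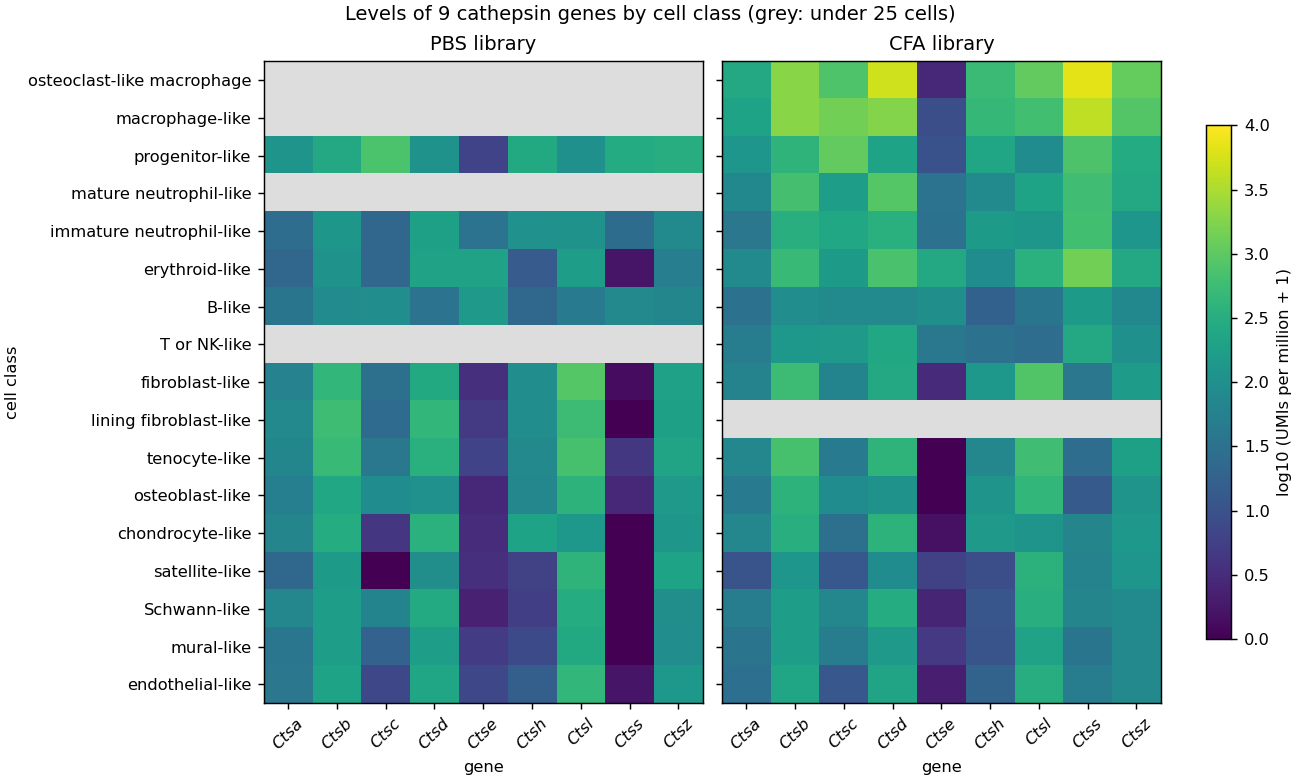
Levels of the 9 cathepsin genes by cell class, PBS on the left and CFA on the right, as log10 of CPM plus 1, with classes of under 25 cells in grey. In the CFA library the osteoclast-like row is brightest for Ctss (6839 CPM) and Ctsd (5201 CPM), and Ctse is near zero in both macrophage rows.

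Only 17 macrophage-like cells were found in the PBS library, so their values are set beside those of the CFA library without a ratio. Their sum was 6376 CPM (6017 to 6751). *Ctsb* led with 1995 CPM (1797 to 2210), close to its CFA level, and *Ctsc* followed at 1177 CPM (1025 to 1344). *Ctss* was at 1074 CPM (929.2 to 1234) and *Ctsd* at 628.9 CPM (519.7 to 754.3), and neither interval reached the CFA level of the gene. *Ctsb* was thus first in PBS and *Ctss* first in CFA, and the PBS intervals of *Ctsc* and *Ctss* overlapped. The finer clustering described next put 10 of the 17 PBS cells in one macrophage-like cluster and 7 in a monocyte-like one, whereas the largest part of the CFA cells lay in a cluster with no PBS cell, so the class does not hold the same kinds of cells in both libraries. The single PBS cell in the osteoclast-like cluster held 77 cathepsin UMIs and is not described further.

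The myeloid cells were also clustered on their own at a finer resolution, a choice made after the data were seen. In the CFA library this gave a progenitor-like cluster led by *Prtn3* and *Mpo* (62 cells), a monocyte-like cluster led by *Ccr2* and *F13a1* (85 cells), a macrophage-like cluster led by *Mrc1* and *C1qa* (93 cells), another macrophage-like cluster with *Arg1* and *Nos2* among its leading genes (244 cells) and an osteoclast-like cluster led by *Mmp12* (155 cells). A cluster of 42 cells with neutrophil genes and one of 32 cells with T cell genes carried macrophage genes as well and are left out here. In this order *Ctss* stood at 371.2, 1765, 4624, 5299 and 7200 CPM and *Ctsd* at 151.4, 531.3, 1437, 3240 and 5601 CPM. Both genes therefore had their lowest level in the progenitor-like and their highest in the osteoclast-like cluster, and the order of clusters in the plot is one of display, not of time. The osteoclast-like class described above held 269 CFA cells, so part of it lay outside the finer osteoclast-like cluster. The *Arg1* and *Nos2* cluster had *Mmp12* at 805.0 CPM and *Dcstamp* at 191.7 CPM, against 4509 and 646.6 CPM in the osteoclast-like one. The line between macrophage-like and osteoclast-like cells thus depends on the clustering.

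*Ctsl* (105.9, 173.9, 386.5, 890.3 and 1224 CPM) had the same order of clusters. *Ctsz* (283.5 to 1151 CPM), *Ctsa* (91.81 to 261.0 CPM) and *Ctsh* (203.0 to 537.8 CPM) also ran upward in it, but their intervals overlapped between the *Arg1* and *Nos2* cluster and the osteoclast-like one. *Ctsb*, *Ctsc* and *Ctse* departed from that order. *Ctsb* peaked in the *Mrc1* and *C1qa* cluster at 3112 CPM, above 1806 CPM in the *Arg1* and *Nos2* cluster and 2079 CPM in the osteoclast-like one. *Ctsc* was at 1051 CPM already in progenitor-like cells, at 1250 to 1441 CPM in the monocyte- and macrophage-like clusters and at 584.4 CPM in the osteoclast-like cluster. The *Mrc1* and *C1qa* cluster was the only macrophage-like one with PBS cells, 10 in all, and in them *Ctss* was at 1088 CPM and *Ctsd* at 819.9 CPM, below the CFA values of 4624 and 1437 CPM, while *Ctsb* was at 2549 CPM and *Ctsc* at 1379 CPM.

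**Figure D3:**
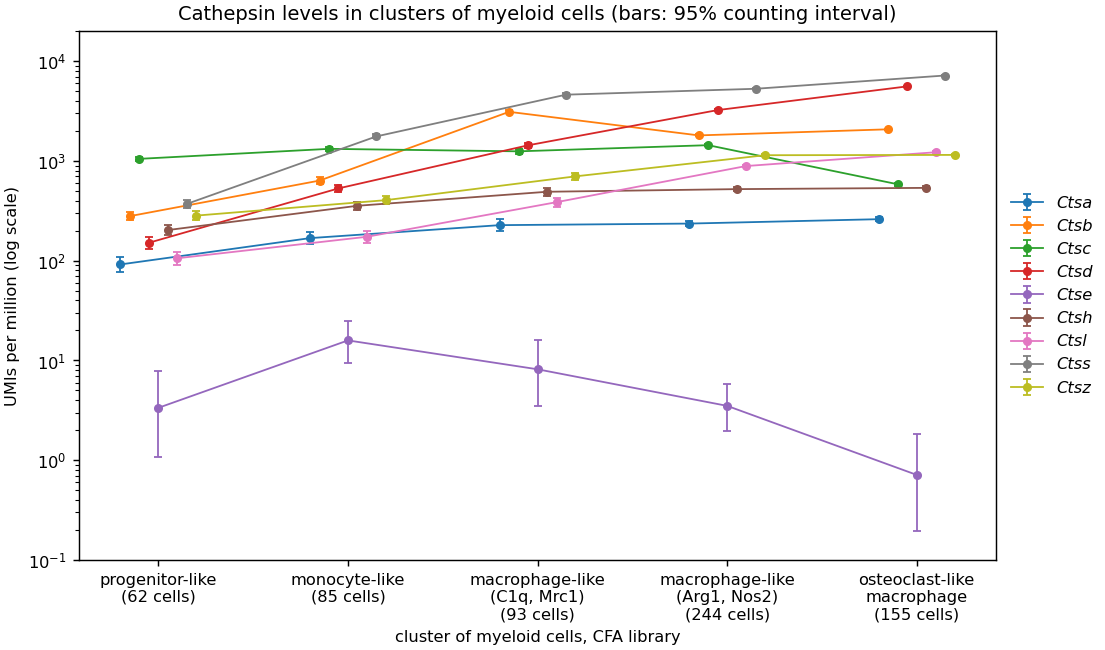
Cathepsin levels (CPM, log axis) in 5 clusters of myeloid cells of the CFA library, with 95% counting intervals as bars and lines that only join the points of a gene. Ctss runs from 371.2 to 7200 CPM and Ctsd from 151.4 to 5601 CPM across the clusters, whereas Ctsc is lowest in the osteoclast-like cluster at 584.4 CPM.

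The other blood-forming and immune classes had cathepsin profiles of their own. *Ctsc* was the leading member of progenitor-like cells in both libraries, 33.3% of their cathepsin UMIs in PBS and 34.2% in CFA, with 729.1 and 1099 CPM. That cluster was also led by monocyte genes. Mature neutrophil-like cells of the CFA library, which were few in PBS, had *Ctsd* at 892.1 CPM, *Ctsb* at 654.1 CPM and *Ctss* at 586.9 CPM, and *Ctsc* was at 175.2 CPM in them.

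*Ctse* was set apart from the other members by where it was found. It made up 25.7% of the cathepsin UMIs of erythroid-like cells in PBS (203.0 CPM, 187.1 to 219.9) and 23.4% of those of B-like cells (137.7 CPM, 116.2 to 162.2). Among B-like cells it was highest in the cluster led by the early B cell genes *Vpreb1*, *Lef1* and *Igll1*, 355.6 CPM in PBS and 243.1 CPM in CFA, against 125.0 and 79.30 CPM in the cluster led by *Agbl1*, *Cd79a* and *Cd79b*. In connective tissue and vessel classes *Ctse* did not exceed 6.313 CPM. Across the levels of 29 class and library combinations, its Pearson correlation with *Ctsl* was −0.51, the lowest of all member pairs, whereas *Ctsb* and *Ctsz* had the highest at 0.86.

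In the PBS library, with macrophages scarce, the highest levels among classes of at least 25 cells were spread over several kinds of cells. Progenitor-like cells were highest for *Ctsa*, *Ctsc*, *Ctsh*, *Ctss* and *Ctsz*, lining fibroblast-like cells for *Ctsb* and *Ctsd*, fibroblast-like cells for *Ctsl* and erythroid-like cells for *Ctse*. *Ctsl* was the most abundant member in fibroblast-like cells, at 878.8 CPM (853.7 to 904.4), and in tenocyte-like cells, at 691.6 CPM (656.1 to 728.5). In lining fibroblast-like cells *Ctsl* at 547.3 CPM (486.4 to 613.7) and *Ctsb* at 566.0 CPM (504.1 to 633.4) had overlapping intervals. In chondrocyte-like cells *Ctsd* (360.8 CPM) and *Ctsb* (294.0 CPM) stood above *Ctsl* (134.8 CPM). *Ctsh* had a second peak in chondrocyte-like cells, 210.5 CPM (189.8 to 232.8), next to 265.4 CPM (229.3 to 305.5) in progenitor-like cells, where Schwann-like and endothelial-like cells had 4.581 and 15.08 CPM. In the CFA library osteoclast-like cells were highest for 7 members, macrophage-like cells for *Ctsc* and erythroid-like cells for *Ctse*.

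CFA and PBS were compared within the 12 classes that had at least 25 cells in both libraries. A gene entered where its mean level would give at least 10 UMIs in each library, and a ratio of 1.5 in either direction is called higher or lower. Of the 108 pairs of a member and a class, 97 entered, 33 were higher in CFA, 3 were lower and 61 lay within the limit. Over the same classes 10.0% to 25.9% of all genes were higher and 8.85% to 19.6% lower. *Ctss* was higher in 11 of 11 classes and *Ctsc* in 7 of 11. A gene barely seen in PBS entered only through its CFA level and could then only come out higher. *Ctss* did so in Schwann-, chondrocyte-, mural- and satellite-like cells, with 0 PBS UMIs. It also did so in fibroblast-, erythroid-, endothelial- and tenocyte-like cells, with 2 to 7. The same held for *Ctsc* in chondrocyte-like and *Ctsh* in Schwann-like cells, with 6 and 7. In the opposite direction, *Ctse* in endothelial-like cells, with 36 UMIs in PBS and 8 in CFA, entered only through its PBS level. It could then only come out lower. None of these calls is read as a result. Of the 8 connective tissue, vessel, nerve and muscle classes, 55 pairs entered without *Ctss*, and 7 of them were higher, 3 lower and 45 within. Over all genes 10.0% to 15.8% were higher and 8.85% to 19.6% lower in these classes, so these counts are no result about the members.

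Fibroblast-like cells (468 in PBS, 368 in CFA) had a summed level of 1967 CPM in PBS and 2097 CPM in CFA (ratio 1.07, 1.04 to 1.10). 2 of 9 members were higher and none lower, where 15.0% of all genes tested in this class were higher and 11.6% lower. Those 2 were *Ctss*, a call set aside above, and *Ctsc*. *Ctsc* went from 28.70 to 63.10 CPM (2.20, 1.81 to 2.68), but its ratio was 1.43 after thinning to 1000 UMIs and 1.63 without the cells of highest doublet score. It was higher in CFA in the cluster led by *Apod* and *Inmt* (46.44 and 82.63 CPM) and in the *Pi16* and *Mfap5* cluster (16.03 and 67.30 CPM), and not in the *Angptl1* and *Cilp* cluster (20.75 and 18.07 CPM).

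The abundant members of fibroblast-like cells differed little between the libraries. *Ctsl* was at 878.8 CPM in PBS and 824.6 CPM in CFA (0.938, 0.901 to 0.978) and was lower in CFA in each of the 3 clusters. *Ctsb* was at 448.2 and 557.0 CPM (1.24, 1.18 to 1.31) and was higher in CFA in each of them. *Ctsh* was at 91.56 and 132.8 CPM (1.45, 1.29 to 1.63), but this difference ran in opposite directions among the clusters, from 65.39 to 190.3 CPM in the *Angptl1* and *Cilp* cluster and from 96.46 to 64.49 CPM in the *Apod* and *Inmt* cluster. *Ctsd* (264.5 and 261.5 CPM) and *Ctsa* (58.15 and 59.70 CPM) had intervals of the ratio that included 1, and *Ctsz* was at 194.1 and 159.8 CPM (0.823, 0.752 to 0.902). Tenocyte-like cells, with *Ctsb* at 521.6 and 693.4 CPM (1.33, 1.22 to 1.45) and *Ctsl* at 691.6 and 594.8 CPM (0.860, 0.787 to 0.939), had the same directions for both genes. In tenocyte-like cells *Ctss* alone of 8 members passed the limit, where 11.7% of genes were higher and 11.5% lower. That call is among those set aside above.

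Endothelial-like cells (694 in PBS, 954 in CFA) had a summed level of 1071 CPM in PBS and 940.7 CPM in CFA (0.879, 0.848 to 0.910). 2 of 9 members (*Ctss* and *Ctsc*) were higher and 2 (*Ctse* and *Ctsz*) lower, where 11.3% of all genes were higher and 13.9% lower. The *Ctss* and *Ctse* calls are among those set aside above. *Ctsc* was at 6.313 and 11.33 CPM, and the macrophage gene *Lyz2* moved with it, from 4.735 to 222.2 CPM. At the *Ctsc* to *Lyz2* ratios of the osteoclast-like and macrophage-like cells, that *Lyz2* level would go with 5.47 and 21.8 CPM of *Ctsc*, so the *Ctsc* difference and material from macrophages cannot be told apart. *Ctsz* went from 133.3 CPM (124.0 to 143.1) to 76.32 CPM (69.85 to 83.22), a ratio of 0.573 (0.511 to 0.641), and *Ctsl* from 437.4 to 307.2 CPM (0.702, 0.662 to 0.745), short of the limit. Both were lower in CFA in all 5 endothelial-like clusters. For *Ctsl* the levels were 511.0 and 397.2 CPM in the *Timp4* and *Gpihbp1* cluster, 340.3 and 168.7 CPM in the *Sema3g* and *Gja5* cluster, and 485.5 and 391.9 CPM in the *Plvap* and *Selp* cluster. *Ctsb* (211.0 and 232.7 CPM) and *Ctsd* (223.6 and 218.5 CPM) were close in the libraries. *Ctse* had 36 UMIs in PBS and 8 in CFA (0.189, 0.0758 to 0.413), and classing cells one by one turned its ratio to 3.44.

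**Figure D4:**
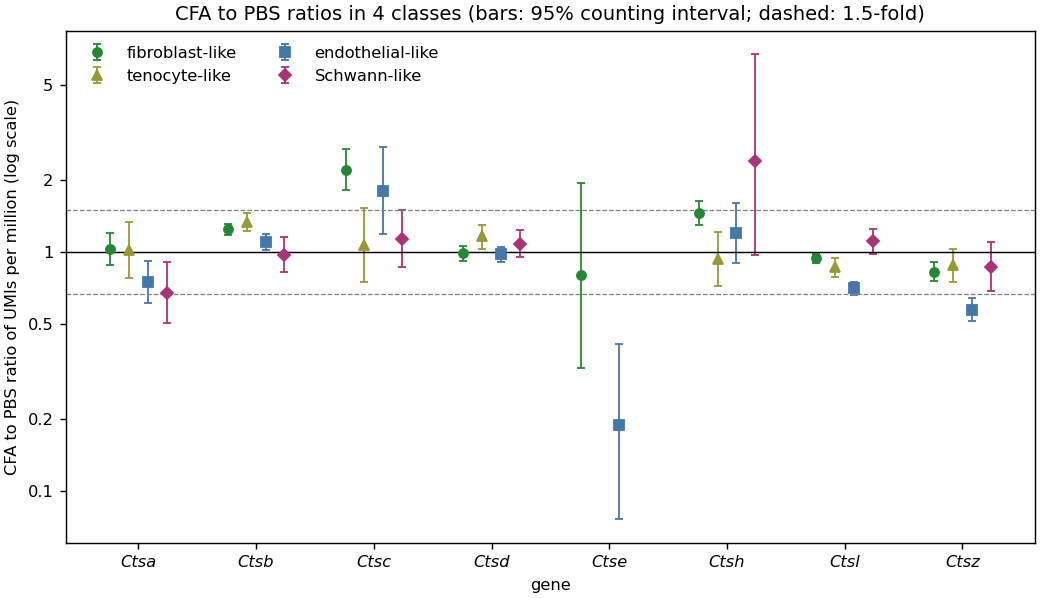
CFA to PBS ratios of cathepsin levels (log axis) in fibroblast-, tenocyte-, endothelial- and Schwann-like cells, without Ctss and for genes with enough UMIs, with 95% counting intervals and dashed lines at 1.5-fold in either direction. Ctsb, Ctsd and Ctsl points lie between 0.702 and 1.33, while Ctsc is at 2.20 in fibroblast-like and 1.79 in endothelial-like cells.

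The remaining structural classes had few members past the limit. The *Ctss* calls of Schwann-, mural- and satellite-like cells and the *Ctsh* call of Schwann-like cells are among those set aside above. In Schwann-like cells 2 of 8 members were higher (*Ctss*, and *Ctsh* with 7 and 20 UMIs), beside 15.8% of genes higher and 8.85% lower, and *Ctsd* (276.8 and 299.2 CPM) and *Ctsl* (300.4 and 332.1 CPM) were close. *Ctsh* was at 4.581 and 10.94 CPM there, and the *Lyz2* level of these cells in CFA would go with 5.74 and 10.6 CPM of *Ctsh* at the ratios of the osteoclast-like and macrophage-like cells. In mural-like cells 2 of 8 were higher, *Ctss* and *Ctsc* (17.14 and 48.29 CPM), beside 10.0% and 12.3% of genes. Satellite-like cells had *Ctss* higher and *Ctsz* lower, 205.2 and 125.9 CPM (0.614, 0.442 to 0.852), among 5 members, beside 15.6% and 19.6% of genes. In osteoblast-like cells *Ctsb* (238.9 and 386.9 CPM) and *Ctsh* (70.70 and 115.7 CPM) of 7 were higher, beside 13.6% and 18.9%, although this class held only 35 and 28 cells and the *Ctsb* ratio of 1.62 was 0.734 when cells were classed singly. *Ctsz* was thus lower in CFA past the limit in both endothelial-like and satellite-like cells and within it in the other structural classes.

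In chondrocyte-like cells 2 of 8 members were higher, *Ctss* and *Ctsc* (3.341 and 29.10 CPM), beside 10.3% of genes higher and 18.0% lower. Both calls are among those set aside above, so this count is not read as a result. The *Ctsc* UMIs of the CFA library lay in 8.14% of the cells, and its ratio of 8.71 ran from 2.11 to 41.6 over the alternatives. *Ctsh*, prominent in these cells, was at 210.5 CPM in PBS and 141.9 CPM in CFA (0.674, 0.575 to 0.790). Of the 89 chondrocyte-like cells in PBS, 30 formed a cluster led by *Cytl1* and *Mia* with no cell of the CFA library. *Ctsh* was at 127.5 CPM in that cluster, and without it *Ctsh* was at 226.5 CPM in PBS and 141.9 CPM in CFA, a difference past the limit.

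*Ctss* was the member with the widest difference in cells that barely had it in PBS. In fibroblast-like cells it had 2 UMIs in PBS and 207 in CFA, 0.3776 and 37.00 CPM (98.0, 26.8 to 815), and in endothelial-like cells 4 and 319 UMIs, 0.7015 and 47.55 CPM (67.8, 26.2 to 250). It had no UMI in PBS in Schwann-, chondrocyte-, mural- and satellite-like cells, and with a floor of 3 UMIs per library it was at least 32.6-fold, 38.6-fold, 23.4-fold and 7.66-fold higher in CFA. The CFA levels in these 6 classes lay between 35.44 and 64.43 CPM, against 6839 CPM in osteoclast-like cells. At least 1 *Ctss* UMI was seen in 26.4% of fibroblast-like and 26.6% of endothelial-like cells of the CFA library, at median depths of 12922.5 and 4721.5 UMIs, and in 3.05% and 5.97% after thinning to 1000 UMIs.

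*Lyz2*, the lysozyme gene of macrophages and neutrophils, moved with *Ctss* in the same classes. It was at 9.062 and 194.3 CPM in fibroblast-like cells of PBS and CFA, at 4.735 and 222.2 CPM in endothelial-like cells and at 12.43 and 335.9 CPM in Schwann-like cells. For each 100 *Lyz2* UMIs there were 21.6 *Ctss* UMIs in osteoclast-like cells and 28.8 in macrophage-like cells, and 13.1 to 27.8 in the 8 structural classes of the CFA library. At the ratio of the osteoclast-like cells, the *Lyz2* of endothelial-like cells would go with 48.0 CPM of *Ctss*, and 47.55 CPM was measured. In fibroblast-like cells the same figures were 42.0 and 37.00 CPM. For *Ctsc* the ratios of both macrophage classes gave 4.79 and 19.1 CPM in fibroblast-like cells, where 28.70 CPM was measured in PBS and 63.10 CPM in CFA. In mural-like cells they gave 6.65 and 26.5 CPM, beside 17.14 CPM in PBS and 48.29 CPM in CFA. In chondrocyte-like cells they gave 5.78 and 23.0 CPM, beside 3.341 CPM in PBS and 29.10 CPM in CFA. Carried material would come on top of the PBS level, so these figures do not stand against the whole CFA level. How much of the *Ctsc* difference such material made up was not tested. Of the 7 macrophage markers, the summed level was 108.2 CPM in PBS and 114.6 CPM in CFA in endothelial-like cells and 117.2 and 159.3 CPM in fibroblast-like cells, with *Cd163* at 0 in both classes in CFA. The 8 osteoclast-like markers summed to 105.9 and 157.3 CPM in endothelial-like and to 295.6 and 478.3 CPM in fibroblast-like cells, with *Dcstamp* and *Mmp12* at 0 in PBS and detected in CFA in both, and *Ocstamp* at 0 throughout. *Atp6v0d2*, of the same list, was at 0 and 2.236 CPM in endothelial-like cells but lower in CFA in fibroblast-like cells, 3.776 and 1.966 CPM. The *Ctss* of these classes and RNA or cell material from macrophages cannot be told apart here, and their *Ctss* level is not read as expression by the class. When cells with over 1000 CPM of *Lyz2* were left out, a choice made after the data were seen, the ratio was 61.3 in endothelial-like and 60.0 in fibroblast-like cells.

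**Figure D5:**
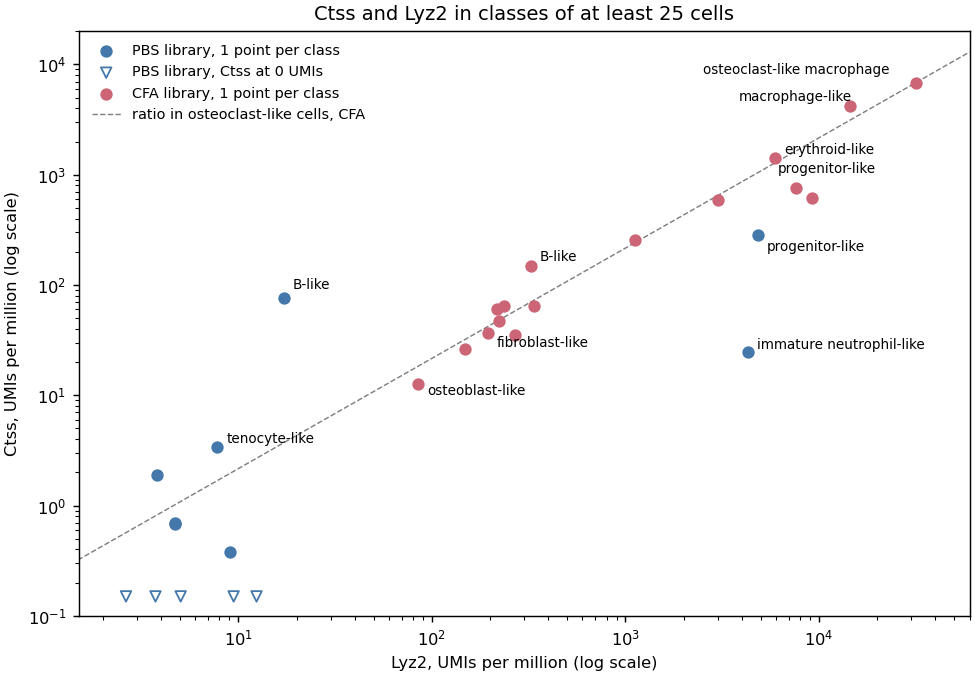
Ctss against Lyz2 (CPM, both log axes) for each class of at least 25 cells in the PBS and CFA libraries, with open triangles at the bottom for classes without a Ctss UMI and a dashed line at the ratio of osteoclast-like cells in CFA, 21.6 Ctss per 100 Lyz2 UMIs. The structural classes of the CFA library lie near that line, with 13.1 to 27.8 Ctss per 100 Lyz2 UMIs, and both genes are lower in the same classes of the PBS library.

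In the 4 blood-forming and immune classes 19 of 35 pairs were higher and none lower, and 15 of 31 were higher without *Ctss*. Over all genes 10.1% to 25.9% were higher and 10.3% to 19.6% lower in these classes. The 19 include the *Ctss* call of erythroid-like cells set aside above. They also include the other calls of that class, whose CFA cells carried macrophage genes. Progenitor-like cells had *Ctss* at 284.5 and 762.1 CPM (2.68, 2.32 to 3.11), *Ctsd* at 112.2 and 210.2 CPM (1.87, but 0.968 after thinning to 1000 UMIs), *Ctsb* at 258.5 and 404.0 CPM (1.56) and *Ctsc* at 729.1 and 1099 CPM (1.51), 4 of 8 higher beside 12.6% of genes higher and 11.4% lower. The finer clustering split this class, and its monocyte-like part was 12 of 37 cells in PBS and 66 of 131 in CFA. In B-like cells 2 of 9 were higher, *Ctsd* (34 and 60 UMIs, 32.52 and 75.43 CPM, ratio 2.32) and *Ctss* (76.52 and 148.3 CPM, 1.94, 1.45 to 2.61), beside 10.1% and 11.0%, and *Ctse* was lower within the limit (137.7 and 98.06 CPM, 0.712).

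The differences in the last pair of classes also came with markers of other cells. In immature neutrophil-like cells 5 of 9 members were higher, beside 15.3% of genes higher and 19.6% lower, with *Ctss* at 24.56 and 614.2 CPM and *Ctsc* at 19.95 and 241.8 CPM. The 7 macrophage markers summed to 144.3 CPM in PBS and 624.3 CPM in CFA there, and without the cells of highest doublet score the ratio fell from 2.49 to 1.08 for *Ctsb* and from 12.1 to 3.73 for *Ctsc*, and turned to 0.814 for *Ctsz*. With log-normalized counts *Ctsd* and *Ctsz* were lower in CFA in these cells, at 0.840 and 0.909. In erythroid-like cells 8 of 9 members were higher, beside 25.9% of genes higher and 10.3% lower, and *Ctss* was at 0.6755 CPM (2 UMIs) in PBS and 1426 CPM in CFA. The median cell of this class held 18331 UMIs in PBS and 2322.5 in CFA, 58.6% of the CFA cells and 1.08% of the PBS cells had over 1000 CPM of *Lyz2*, and the macrophage markers summed to 29.72 and 356.2 CPM, so its CFA cells carried macrophage genes beside their erythroid name. Without the cells over 1000 CPM of *Lyz2* the ratio went from 3.62 to 0.824 for *Ctsd*, from 2.08 to 1.01 for *Ctsl* and from 6.66 to 1.42 for *Ctsh*. The ratio of the other called members also fell, to 2.51 for *Ctsa*, 1.74 for *Ctsb*, 2.71 for *Ctsc*, 1.65 for *Ctsz* and 153 for *Ctss*. Without the hemoglobin limit *Ctsl* and *Ctsz* were lower in CFA, at ratios of 0.517 and 0.823. *Ctse*, the cathepsin of red cell precursors, was at 203.0 and 254.2 CPM in it (1.25, 1.06 to 1.47). Without this class 25 of 88 pairs were higher and 3 lower, with the calls set aside above still counted. Over all genes 10.0% to 15.8% were higher and 8.85% to 19.6% lower in the remaining classes.

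Other genes of the lysosome were followed as lists. Their counts between osteoclast-like and macrophage-like cells are read beside the 8.24% of all genes higher and 31.4% lower in osteoclast-like cells. Between osteoclast-like and macrophage-like cells of the CFA library, *Ctsk*, the collagen-cutting cathepsin of osteoclasts, was at 85.80 and 13.05 CPM (6.57, 5.01 to 8.78). Even in osteoclast-like cells it was far below *Ctss* and *Ctsd*. Its CFA level was above that of osteoclast-like cells in tenocyte-like (388.5 CPM), fibroblast-like (372.9 CPM), chondrocyte-like (175.6 CPM) and osteoblast-like cells (139.2 CPM). Of 20 other lysosomal hydrolases 4 were higher and 4 lower, with *Acp5*, the tartrate-resistant phosphatase, at 447.2 and 144.3 CPM and *Lipa*, the acid lipase, at 243.8 and 119.3 CPM. Of 17 subunits of the vacuolar proton pump, which acidifies the lysosome, 3 were higher and 1 lower, among them *Atp6v0d2* at 240.9 and 28.67 CPM. *Acp5* and *Atp6v0d2* are among the markers that name the class, so the naming favours their higher level and nothing is read from it. Of 9 inhibitors 3 were higher and 4 lower. *Cstb*, encoding the cytosolic inhibitor stefin B, was at 1703 and 856.1 CPM. *Stfa3* (6.051 and 0.2331 CPM) and *Csta2* (34.90 and 3.030 CPM) were higher and *Stfa2l1* (2.918 and 27.74 CPM) and *Cstdc5* (2.702 and 31.47 CPM) lower, but these are close paralogs of the stefin A family, among which reads may have been split.

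Among partners and processing genes, *Psap*, the prosaposin precursor cut by cathepsin D, was at 7126 and 3544 CPM in osteoclast-like and macrophage-like cells, and *Cd63*, a membrane protein of late endosomes, at 2031 and 495.8 CPM. *Cd74*, the invariant chain that cathepsin S trims, went the opposite way from *Ctss*, 3513 and 9529 CPM (0.369), as did *Lgmn*, the protease legumain, which processes cathepsins (251.0 and 660.6 CPM, 0.380). Of the 7 MiT/TFE factors and regulators tested none was higher and 2 were lower, *Tfeb* (22.04 and 39.62 CPM) and *Flcn* (8.645 and 19.35 CPM). With 8.24% of all genes higher and 31.4% lower, this count is no result about the list.

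Between the libraries the lists are read beside the 15.0% of all genes higher and 11.6% lower in fibroblast-like cells and the 11.3% and 13.9% in endothelial-like cells. In fibroblast-like cells 2 of 8 processing genes were higher and 1 lower. There *Ctsk* was at 202.8 and 372.9 CPM (1.84, 1.71 to 1.98), *Lgmn* at 34.55 and 70.61 CPM and *Gnptab*, which makes the sorting tag, at 23.41 and 46.12 CPM, while 3 of 20 hydrolases were higher (*Naglu*, *Acp5* and *Galns*) and none lower. *Spock1*, encoding the proteoglycan testican-1, an inhibitor of cathepsin L, had 1 UMI in PBS and 57 in CFA (54.0, 9.30 to 2169). It entered only through its CFA level and could only come out higher, so its ratio is not read as a result. In endothelial-like cells 1 of 20 hydrolases was higher and 4 lower, none of 16 proton pump subunits passed the limit, and of 4 inhibitors tested 1 was higher and 2 were lower. *Lgmn* was at 32.97 and 98.53 CPM (2.99), and *Cst3* was at 1457 and 851.3 CPM (0.584, 0.565 to 0.604). *Cd74* was at 43.84 and 699.5 CPM in endothelial-like and 0.9439 and 269.9 CPM in fibroblast-like cells. In fibroblast-like cells it too entered only through its CFA level and is not read as a result. Macrophage-like cells of the CFA library had 9529 CPM of *Cd74*, and how much material from them made up of either difference was not tested.

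The genes whose levels were most like each member across the 29 class and library values included other lysosomal genes. *Psap* was first for *Ctsz* (Pearson r 0.906), *Npc2* for *Ctsa* (0.890), *Grn* for *Ctsb* (0.885) and *Hexa* for *Ctsh* (0.876). *Ctss* was closest to *Ccl9* (0.939), *Ccl6* (0.938) and *Malt1* (0.937), *Ctsc* to *Pld4* (0.897) and *Ctsd* to *Fth1* (0.850). *Ctse* was closest to *Mns1* (0.878), *Dtl* (0.849) and *Bcl11a* (0.843), and *Ctsl* to *Pcdh7* (0.802). These values share libraries and classes, so they describe likeness only and carry no test.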

How the data were processed

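Single-cell RNA-Seq was done on 1 PBS and 1 CFA library. The deposited files are UMI counts per gene and barcode, made by the authors with Cell Ranger 7.0.1 on mm10 per the labels. The labels name the 3′ v2 kit where the study's methods name another version, and the annotation used for counting is not given in the sources used here. Counts of barcodes that passed the limits were normalized with SCTransform 0.4.2 and integrated in Seurat 5.3.0 (R 4.3.3) on 3000 genes without any cathepsin gene, with 200 components and a resolution of 1.5. A marker was detected at 25% of a cluster's cells and 2-fold over the library's other cells, and a name needed 3 markers. Counts were summed by class in Python 3.11.15 (numpy 2.4.6, scipy 1.17.1, pandas 2.3.3) and the steps were tested on simulated data. Doublets were kept, since Scrublet in scanpy 1.11.5 called 21 PBS and 2 CFA cells and so did not work for CFA; removing the 5% of highest scores was an alternative. Members were named in every class, other genes where they were past 1.5-fold in the listed pathways (at most 4 per list and class) or among the 3 most like a member. The members, lists and alternatives were chosen with earlier results of these data known.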

Additional observations from a re-analysis of the deposited data

Results flagged for a closer look

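*Ctsz*, encoding the carboxypeptidase cathepsin Z, had CFA to PBS ratios in opposite directions past 1.5-fold among classes. The ratio was 5.11 in erythroid-like and 1.62 in immature neutrophil-like cells, and 0.573 in endothelial-like and 0.614 in satellite-like cells. The difference between the classes was not tested. In the first 2 classes macrophage markers were also higher in CFA, and the *Ctsz* ratio of immature neutrophil-like cells was 0.814 without the cells of highest doublet score and 0.909 with log-normalized counts and no integration. The erythroid-like ratio was 0.823 without the hemoglobin limit, and 1.65 without *Lyz2*-high cells. At the values under 1 neither class ran opposite to the endothelial-like and satellite-like cells.

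The barcodes left out for more than 1% hemoglobin UMIs entered no comparison of the classes. They were 3178 of the 5845 that passed the other limits in PBS and 339 of 4353 in CFA. Here they are pooled over all kinds of cells. The mix of cells may differ between the libraries, which was not tested, and the intervals below do not cover it. In them *Ctse* was at 429.4 CPM in PBS and 989.2 CPM in CFA, a ratio of 2.30 (2.21 to 2.40), the highest *Ctse* levels of any set of barcodes described. The ratio was 17.5 for *Ctss* (10.84 and 190.1 CPM), 3.71 for *Ctsc* (27.56 and 102.2 CPM) and 1.51 for *Ctsd* (153.3 and 231.5 CPM), whereas *Ctsl* was lower in CFA (193.6 and 75.98 CPM, 0.392).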

How the results depend on the processing

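No paired analysis was possible because each treatment had 1 library. In 14 alternatives osteoclast-like or macrophage-like cells were highest for 7 or 8 of the 9 members in CFA. The 33 higher of 97 pairs became 19 of 79 with log-normalized counts and no integration and 21 of 79 with at least 1000 genes per cell, where fewer pairs entered. The higher count was 39 of 100 without the hemoglobin limit. Of 97 pairs it was 42 after thinning to 1000 UMIs, 37 as a mean over cells, 30 without *Lyz2*-high cells and 24 at 2-fold. The 3 lower of 97 became 10 of 100 without the hemoglobin limit, 6 of 79 with log-normalized counts, 5 of 79 with 1000 genes, 8 of 83 with each cell classed on its own and 5 of 87 without high doublet scores. With 97 pairs entered they became 6 as a mean over cells, 11 after thinning to 1000 UMIs, 1 at 2-fold and 6 without *Lyz2*-high cells. The summed level of macrophage-like cells in CFA was 12504 CPM without the hemoglobin limit, 10891 with log-normalized counts, 12347 with 1000 genes, 10524 as a mean over cells and 10537 after thinning. It was 15595 with each cell classed on its own, and 15826 at resolution 0.8 and 15405 at 5% mitochondrial UMIs, which gave no separate osteoclast-like class. The level of osteoclast-like cells was 16002 with log-normalized counts, 17510 with 1000 genes, 18365 with cells classed on their own, 16996 as a mean, 18096 without high doublet scores and 17007 after thinning. The endothelial-like summed ratio was 0.937, 0.944, 0.978 and 0.807 with log-normalized counts, 1000 genes, cells classed on their own and thinning. The fibroblast-like ratio was 1.01 with cells classed on their own, 1.0 as a mean, 1.03 without high doublet scores and, reversed, 0.922 after thinning, so its sum did not hold a direction. Reversed single ratios were *Ctse* in endothelial-like cells (3.44) and *Ctsb* in osteoblast-like cells (0.734) with cells classed on their own, *Ctsl* (0.517) and *Ctsz* (0.823) in erythroid-like cells without the hemoglobin limit, *Ctsd* in erythroid-like cells without *Lyz2*-high cells (0.824), *Ctsd* (0.840) and *Ctsz* (0.909) in immature neutrophil-like cells with log-normalized counts, *Ctsd* there after thinning (0.982), *Ctsz* there without high doublet scores (0.814) and *Ctsd* in progenitor-like cells after thinning (0.968). The causes were not tested. Of the other single values 288 kept their direction and size and 76 moved in size only. Scaling by the median ratio of genes reversed no ratio. Leaving out clusters of 1 library, *Lyz2*-high cells or the erythroid-like class, and the finer myeloid clusters, were chosen after the data were seen. Depth limits the PBS macrophage-like cells most, since 17 cells with 1176 cathepsin UMIs stand for the class.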
